A study of Rattus norvegicus with 6 samples.

Results

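The very wide accessible regions of the rat kidney are the stretches of 2000 bp or more in a list of open chromatin from Dahl salt-sensitive rats. They were chosen by width alone, as end minus start, on chromosomes 1 to 20, X and Y. They numbered 233 of 151302 listed regions, or 0.154% of the list, and held 0.685% of the listed bases. The 11535 regions from 1000 bp up to, but not including, 2000 bp served as the comparison set, and the 139534 regions under 1000 bp as a second reference.

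The libraries came from kidneys of Dahl S (SS/Jr) rats, an inbred strain in which blood pressure rises with salt intake. They were made by ATAC-seq, in which a transposase inserts sequencing adapters into DNA that is not wrapped in nucleosomes. Of the 6 libraries, 3 were from rats given 1,3-butanediol at 20% with their water and 3 were from rats given no treatment. Butanediol is a precursor of the ketone body β-hydroxybutyrate, the series names 6 weeks of supplementation and both sexes, and no label gives the sex or age behind a library. Positions follow the rn6 build and are 1-based.

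The deposited list gives positions only. Its name carries the codes HMB and HMC, which nothing in it explains. The list is taken here to pool the libraries, but nothing in it names a library, so which ones entered it is not known. It holds no reads, scores or group of origin, so read depth was unknown, butanediol was not compared with no treatment here, and no error between animals can be given. Intervals below are 95% intervals from binomial counts (Wilson for shares, order statistics for medians). They cover counting error only, and neighbouring regions are not independent. No test was run between width classes, because regions of a single list are not replicates. Statements that a value lies inside or outside an interval treat each region as a unit and are descriptions, not tests. Which genes or cell types the regions belong to was not analysed here, since no rn6 annotation was used.

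A typical peak in such an assay marks a promoter or an enhancer, where transcription factors bind and nucleosomes are displaced. A wider call can cover a longer run of open or weakly packed DNA, but whether the calls listed here do was not tested. Long open stretches are known at promoters in CpG islands and at dense groups of enhancers that serve genes of cell identity. Read depth and the way peaks were merged, which both bear on the width of a call, are unknown here.

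Width fell off steeply above the threshold. The narrowest very wide region measured 2000 bp, the median 2150 bp (interquartile range 2049 to 2308 bp) and the widest 3394 bp, while the comparison set had a median of 1210 bp. Only 90 of the 233 reached 2200 bp, 25 reached 2500 bp, 4 reached 2800 bp and 1 exceeded 3000 bp. These widths chose the regions and are a description.

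The threshold fell within a continuous range of widths. Just inside it, regions of exactly 2000 bp lay at chr6:106969948-106971947, chr14:7383413-7385412 and chr17:27332687-27334686. Just outside it, chr12:37593324-37595320 measured 1997 bp. Regions of 1995 bp lay at chr1:79999088-80001082, chr2:260481906-260483900 and chr17:12414160-12416154. The 3 regions just inside had 103 to 116 other regions within 500 kb on either side, and the 4 just outside had 90 to 145.

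The widest regions did not share one kind of neighbourhood. The region at chr1:189469396-189472789 was 399 bp wider than any other and stood between gaps of 10186 bp and 9293 bp, with 101 other regions within 500 kb on either side. The second, chr8:49720945-49723939 (2995 bp), had gaps of 4875 and 13773 bp and 99 regions around it. In contrast, chr10:56010378-56013319 (2942 bp) ended 135 bp before its next region and lay among 152 others. The fourth, chr12:36644139-36646995 (2857 bp), was 5060 bp from its nearest region. Next in width came chr7:78090398-78093192 (2795 bp), chr15:28015184-28017971 (2788 bp) and chr10:57274686-57277378 (2693 bp). They were followed by chr7:51232049-51234697 (2649 bp) and chr9:50556726-50559370 (2645 bp). Because 2 regions tied at 2635 bp, 11 regions make up the 10 widest places. Over these 11 the distance to the nearest region ran from 135 to 22224 bp with a median of 7385 bp, and 2 of the 11 had a neighbour within 1 kb. The tied pair, chr5:5465730-5468364 and chr1:229392625-229395259, had 72 and 36 regions around them.

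Very wide regions occurred on 21 of the 22 chromosomes. Chromosome 1 held 41, chromosome 2 held 19 and chromosomes 6 and 10 held 15 each. Chromosomes 18 and 20 held 4 each, the X held 5, and none of the 21 Y regions was that wide. With so few listed regions, the interval for the Y ran from 0 to 155 per 1000 and held the whole-list value. Per 1000 listed regions, chromosome 1 had 2.42 very wide ones (interval 1.78 to 3.28) against 1.54 in the whole list, and it was the only chromosome whose interval lay above the whole-list value. Chromosome 3 was the only one whose interval lay below it, with 7 very wide regions among 10299, or 0.680 per 1000 (0.329 to 1.40). At a threshold of 1800 bp the chromosome 1 interval still lay above the whole-list value, but chromosome 3, with 29 regions or 2.82 per 1000 (1.96 to 4.04), no longer lay below it (3.80). These 2 chromosomes are the extremes of 22, so their intervals overstate how unusual they are.

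Chromosomes 1 and 3 stood apart from the comparison set too. Chromosome 1 carried 17.6% of the very wide regions (13.2% to 23.0%) and 12.2% of the comparison set. Chromosome 3 carried 3.00% of the very wide regions (1.46% to 6.07%) and 7.00% of the comparison set. For each 1000 comparison regions there were 29.2 very wide regions on chromosome 1 and 8.67 on chromosome 3, compared with 20.2 overall. Chromosome 17 had the highest such value, 33.7, from 14 very wide regions. Its share of them, 6.01% (3.61% to 9.83%), had a lower bound just above its 3.60% of the comparison set. Chromosome 19 had 27.2 from 10. Per length of chromosome the order changed, with 1.61 very wide regions per 10 Mb on chromosome 19, 1.54 on chromosome 17 and 1.45 on chromosome 1. The X, the chromosome with the fewest per 10 Mb (0.313) apart from the Y, was not low per 1000 of its own listed regions (1.94, interval 0.828 to 4.53).

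**Figure D1:**
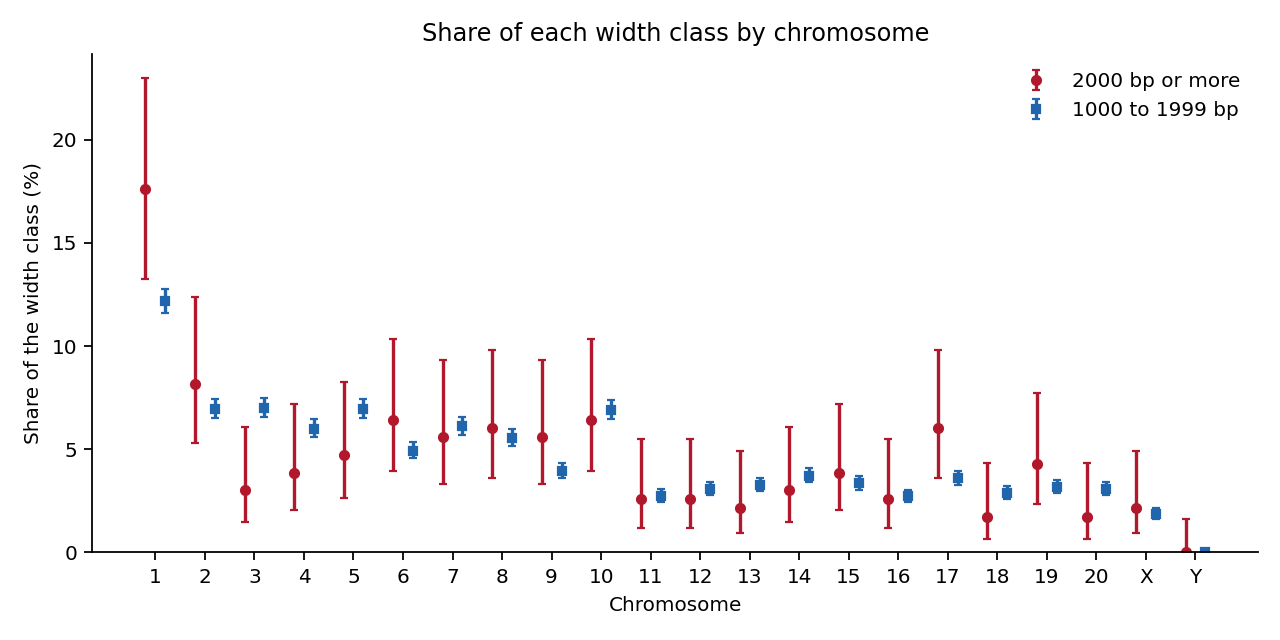
Share of each width class (%, vertical axis) found on each chromosome (horizontal axis), with circles for regions of 2000 bp or more, squares for the comparison set, labelled by its bounds, and bars for 95% Wilson intervals. Chromosome 1 held 17.6% of the very wide regions, and chromosome 3 held 3.00%.

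Within chromosome 1 the 41 regions were unevenly placed. The consecutive regions chr1:89041445-89043664 and chr1:143034605-143037110 were 54.0 Mb apart. The stretch from chr1:219237449-219239497 to chr1:229638419-229640704, in contrast, held 9 of them in 10.4 Mb. These 9 had from 12 to 162 other regions within 500 kb on either side, and the median of the 41 was 98. Listed and comparison regions in these stretches were not counted, so the uneven placement is not set against theirs. These places were picked after the positions were seen.

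The widest region of each chromosome ranged from 2144 to 3394 bp, with 34 to 152 other regions within 500 kb on either side. On chromosome 2 it was chr2:225674115-225676659 (2545 bp), with 139 regions within 500 kb on either side, and on chromosome 3 it was chr3:170900829-170903367 (2539 bp), with 124. Chromosome 4 had chr4:78075861-78078451 (2591 bp), chromosome 14 had chr14:107614828-107617383 (2556 bp) and chromosome 19 had chr19:51552496-51555074 (2579 bp), the last with only 34 regions around it. The narrowest of these 21 was chr11:70131855-70133998 (2144 bp), with 151 regions around it. Chromosomes 6, 13, 16 and 17 had their widest at chr6:52055518-52057950 (2433 bp), chr13:98615110-98617493 (2384 bp), chr16:47717197-47719596 (2400 bp) and chr17:16693611-16696055 (2445 bp). On chromosomes 18 and 20 they were chr18:32593812-32596002 (2191 bp) and chr20:6351226-6353599 (2374 bp).

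Very wide regions lay farther from their nearest neighbour than narrow regions did, and differed from the comparison set by less than the counting error. The median distance, edge to edge, was 4848 bp (interval 4299 to 5191 bp, n = 233) against 4557 bp in the comparison set and 2293 bp in regions under 1000 bp. The interval held the comparison value and not that of the narrow regions. By chromosome, the very wide median was above the comparison median on 11 of 21 chromosomes and above the narrow median on 18 of 21. Across finer classes the distance rose with width up to 1400 to 1599 bp and no further rise was detectable beyond that. Its median was 2251 bp for regions of 400 to 599 bp, 4065 bp for 1000 to 1199 bp, 5058 bp for 1400 to 1599 bp and 4849 bp for 2000 to 2199 bp. The 25 regions of 2500 bp or more had a median of 5779 bp, with an interval of 3935 to 7582 bp that held the values of all classes from 1000 bp upward.

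**Figure D2:**
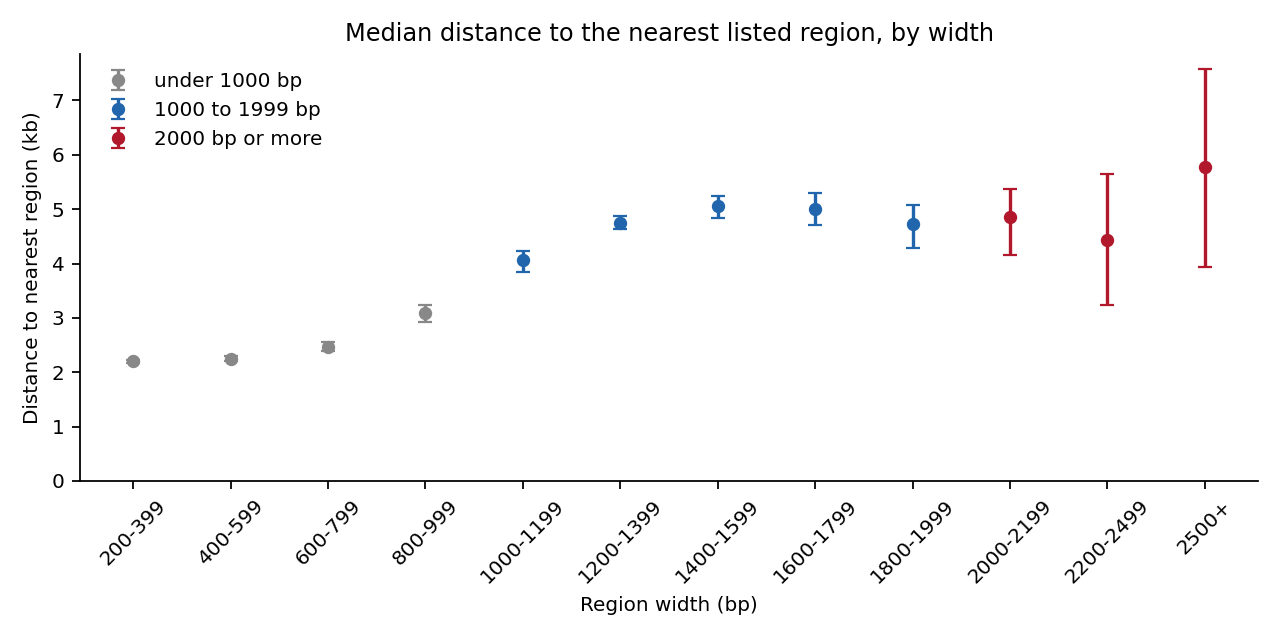
Median distance to the nearest listed region (kb, vertical axis) for classes of region width (bp, horizontal axis), with bars for 95% order-statistic intervals and colours for the 3 width classes. The median rises from 2202 bp in regions of 200 to 399 bp to 5058 bp at 1400 to 1599 bp, and the very wide classes show no further rise beyond their intervals.

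Within the very wide class, width showed almost no rank relation with spacing or crowding. Across the 233 regions, which come from the same list and are not replicates, width and nearest distance had a Spearman rho of 0.026 and a Pearson r of -0.021. The narrower 116 had a median nearest distance of 4715 bp and the wider 117 one of 4917 bp. Width and the number of regions around had a rho of 0.016.

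Close neighbours were present but not common. Another region lay within 1 kb of 50 of the 233 very wide regions, or 21.5% (interval 16.7% to 27.2%). The share was 25.3% in the comparison set and 32.6% in regions under 1000 bp, so only the latter lay outside the interval. Within 250 bp the count was 24 of 233, or 10.3% (7.02% to 14.9%). The interval held both the 12.3% of the comparison set and the 14.2% of narrow regions. A neighbour within 1 kb on both sides was present for 4 of 233, or 1.72% (0.670% to 4.33%), against 1.82% and 3.37%, both inside the interval. The shortest gap was 14 bp, before chr1:197982234-197984461, and it was the only one under 50 bp. A further 22 gaps were 50 to 199 bp long and 19 were 200 to 499 bp long.

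Other listed regions covered a smaller share of the bases within 4 kb of a very wide region than of those 6 to 8 kb away. Other regions covered 3.90% of the first kilobase from the edge, 1.64% of the second, 1.19% of the third and 1.67% of the fourth. Coverage then climbed to 6.74% at 5 to 6 kb, 9.17% at 6 to 7 kb and 9.46% at 7 to 8 kb, before falling to 6.75% at 10 to 11 kb. The comparison set went through the same dip and rise in a shallower form, with 2.17% in the third kilobase and 6.93% at 7 to 8 kb. Regions under 1000 bp varied least, with 5.06% and 6.39% at these distances. The line of the very wide regions rests on 466 flanks and fluctuated farther out as well, with 9.04% at 13 to 14 kb, 9.40% at 17 to 18 kb and 6.19% at 28 to 29 kb. The values near 7 kb are therefore not a lone maximum, whereas the dip below 4 kb had no counterpart farther out. Over 10 to 50 kb the coverage was 7.19% around very wide regions, 6.30% around the comparison set and 5.73% around narrow regions.

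**Figure D3:**
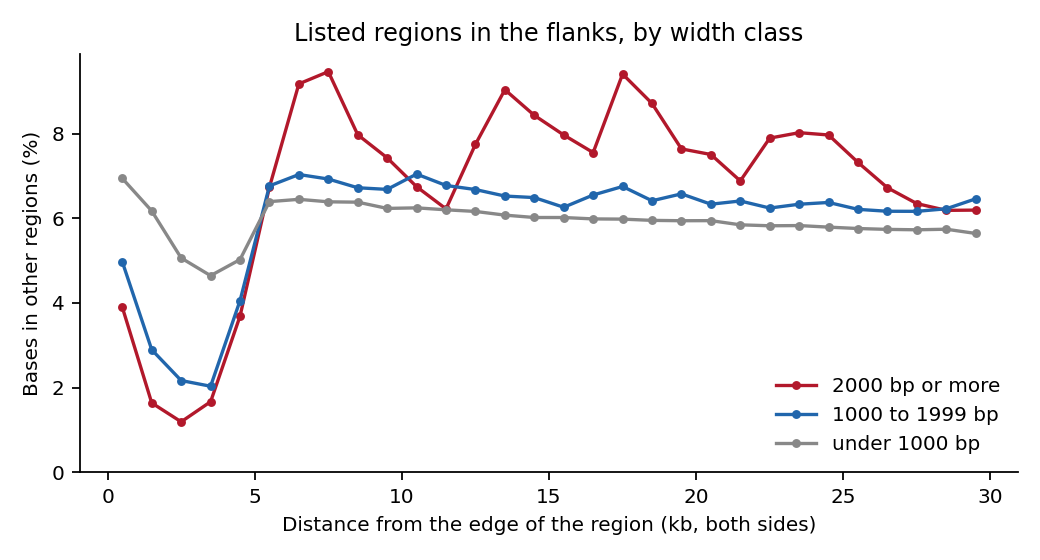
Share of flanking bases that lie in other listed regions (%, vertical axis) against distance from the region's edge (kb, both sides pooled, steps of 1 kb, horizontal axis), for the 3 width classes. The line of the very wide regions dips to 1.19% in the third kilobase and then fluctuates between 6.19% and 9.46% beyond 6 kb.

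Gaps were counted by length as well. Among 466 such gaps were 42 under 500 bp, 38 from 1000 to 3499 bp and 162 from 4500 to 8499 bp. The last class made up 34.8% (interval 30.6% to 39.2%) of gaps beside very wide regions, 27.4% of those beside the comparison set and 20.4% of those beside narrow regions. Gaps of 1000 to 3499 bp made up 8.15% (6.00% to 11.0%), 10.8% and 19.3%. Among the 1-kb classes from 1500 to 8499 bp the very wide regions had their highest count, 45, at 5500 to 6499 bp, and the comparison set had its highest, 2001, at 4500 to 5499 bp. The 41 gaps beside very wide regions at 4500 to 5499 bp came within counting error of that 45, so a different peak position was not detectable. Gaps of 20 kb or more were fewer beside very wide regions, at 46 of 466 or 9.87% (7.48% to 12.9%), than the 15.8% beside the comparison set. These class bounds were set after the counts were seen.

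**Figure D4:**
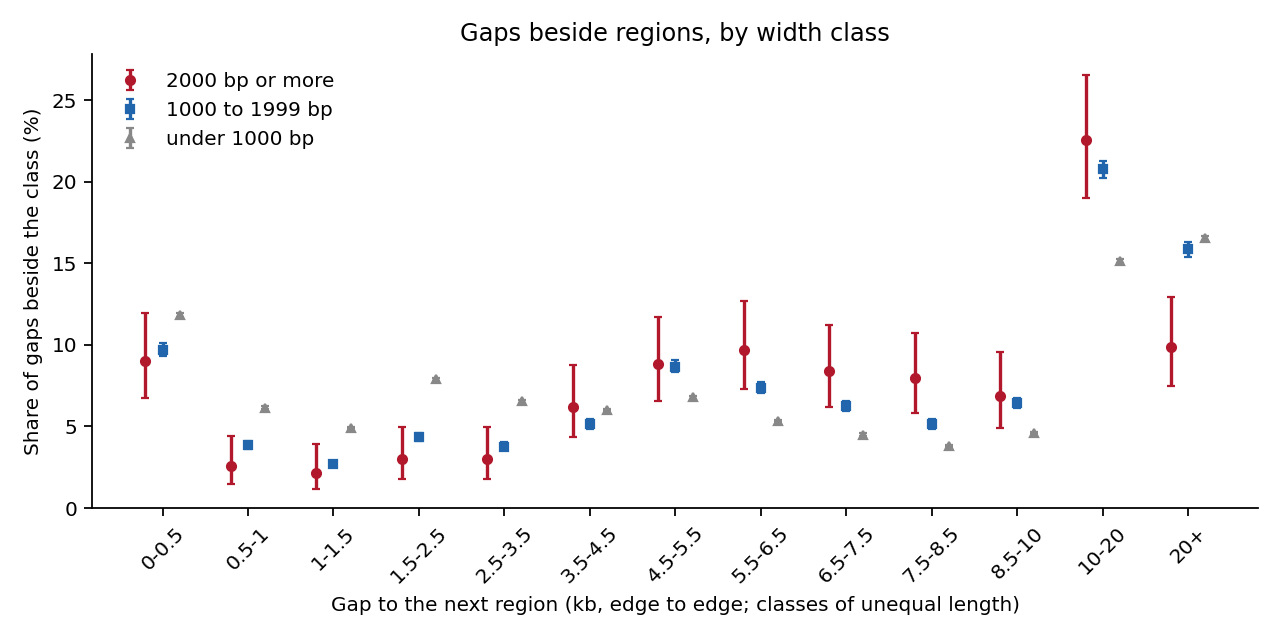
Share of the gaps beside each width class (%, vertical axis) by gap length (kb, edge to edge, horizontal axis, classes of unequal length), with bars for 95% Wilson intervals. For very wide regions (circles) the share is larger than in the comparison set (squares) at 7500 to 8499 bp and smaller at 20 kb and more. In every other class shown, the very wide interval holds the comparison value.

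The regions flanking a very wide region were of ordinary width. Their median was 364 bp (interquartile range 266 to 591 bp, n = 466), against 393 bp beside the comparison set and 399 bp beside narrow regions. A neighbour of 1000 bp or more stood next to 36 of 233 very wide regions, 15.5% (11.4% to 20.6%), and next to 16.1% of the comparison set. No very wide region was directly followed by another, and the widest flank measured 1870 bp.

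Most very wide regions, like most regions of the other classes, had no neighbour close enough to be joined with. A neighbour within 500 bp was present for 16.7% of very wide regions (interval 12.5% to 22.1%). The share was 18.4% in the comparison set, inside that interval, and 22.14% in narrow regions, just above its upper end of 22.06%. When regions less than 500 bp apart were joined, 194 of the 233 stayed alone (83.3%), 34 took in 1 neighbour, 2 became runs of 3 and 3 became runs of 4. The longest joined stretch was chr12:23149354-23153468, 4115 bp built around a region of 2208 bp. It was followed by chr13:106063628-106067349 (3722 bp) and chr1:220936409-220940114 (3706 bp). Joining also produced 1364 stretches of 2000 bp or more that held no very wide region, so the 233 made up 14.6% of the 1597 joined stretches of that length.

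Within 500 kb on either side the number of regions differed from that of the comparison set by less than the counting error, but within 250 kb it did not. The median number of other regions within 500 kb on either side was 100 (interval 95 to 105) for very wide regions, 98 for the comparison set and 91 for narrow regions. Within 250 kb on either side the median was 58 (54 to 62) for very wide regions and 53 for the comparison set, just outside the interval. For 500 kb the very wide median was above the comparison median on 11 of 21 chromosomes. Very wide regions were found in both crowded and nearly empty places. The most crowded was chr7:12422847-12424866 (2020 bp) with 232 others around it, followed by chr5:160093989-160096203 (2215 bp) with 192, chr20:7929595-7931685 (2091 bp) with 177, chr4:100293058-100295554 (2497 bp) with 176 and chr3:11423277-11425342 (2066 bp) with 169.

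At the sparse end chr1:229638419-229640704 (2286 bp) had 12 others around it and was followed by 1221637 bp without a listed region. The next were chrX:142569646-142571707 (2062 bp) with 15 and chrX:4944711-4946714 (2004 bp) with 16, then chr12:18530798-18532847 (2050 bp) with 23 and chr1:59700014-59702388 (2375 bp) with 25. A sparse place was not always an isolated one, since the first of these X regions had neighbours 86 bp before and 362 bp after it. The comparison regions of the X were also sparsely surrounded, with a median of 36 others around them.

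The region farthest from any other was chr1:190070942-190072953 (2012 bp), almost centred between gaps of 68.6 kb and 68.5 kb. The others of the 5 most isolated were chr2:549221-551554 (2334 bp, nearest region at 62.7 kb), chr8:102158755-102160805 (2051 bp, 51.4 kb), chr2:43266227-43268269 (2043 bp, 33.8 kb) and chr11:86275025-86277059 (2035 bp, 25.6 kb). Such isolation was rare, as 9 of the 233 had no region within 20 kb, 3.86% (2.05% to 7.18%), close to the 4.83% of the comparison set.

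**Figure D5:**
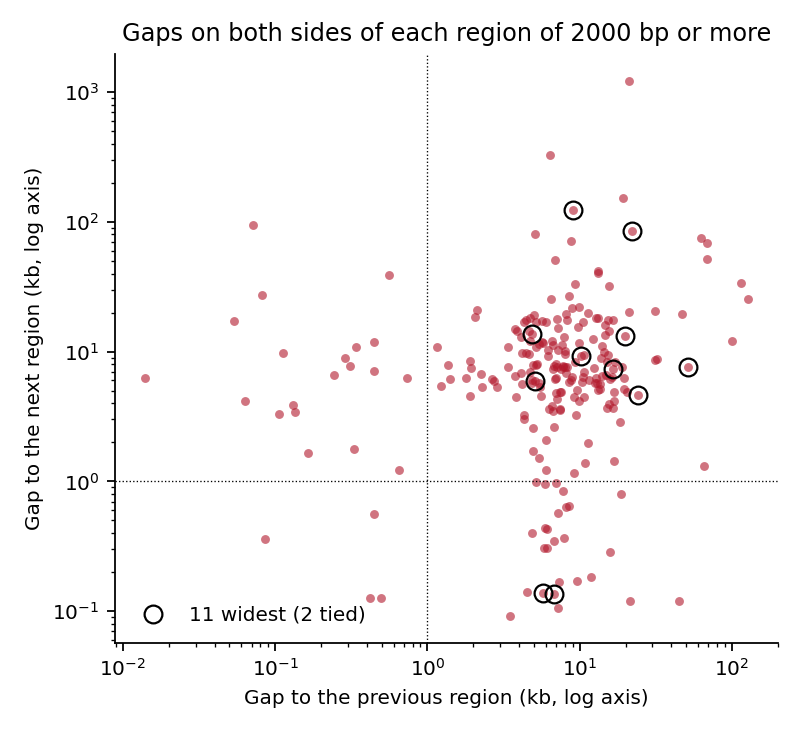
Gap to the previous region (kb, log axis) against gap to the next region (kb, log axis), 1 point for each of the 233 very wide regions, with open circles for the 11 widest and dotted lines at 1 kb. Points in the lower left corner, with both gaps within 1 kb, number 4.

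Very wide regions were mostly far from each other, with a few close pairs. The spacing of an equally small set of other regions was not calculated, so these distances are a description of 233 regions. Consecutive ones on a chromosome lay a median of 6.27 Mb apart (interquartile range 1.65 to 15.4 Mb), and 172 of the 233 had no other within 1 Mb. Of 212 consecutive pairs, 4 were within 100 kb. The closest was chr10:57274686-57277378 (2693 bp) and chr10:57290102-57292134 (2033 bp), 12.7 kb apart with 2 narrower regions between them. The second pair held the widest region of the list, which was followed after 20.4 kb by chr1:189493174-189495560 (2387 bp), with 4 regions between. The third was chr14:7325189-7327249 (2061 bp) and the region of exactly 2000 bp named above, 56.2 kb apart, and the fourth was chr19:58745033-58747101 and chr19:58823502-58825643, 76.4 kb apart.

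Some of these pairs belonged to longer groups. Taking very wide regions no more than 1 Mb from the next, there were 25 groups of 2, 2 groups of 3 and 1 group of 5. The group of 5 spanned chr10:55534306-57292134 and held 2 of the 10 widest regions, namely those of 2942 and 2693 bp. These 2 had their next neighbour 135 and 139 bp away, and all 5 had at least 115 regions within 500 kb on either side. A group of 3 at chr1:189469396-190072953 contained both the widest region and the most isolated one, 575 kb beyond the close pair. The other group of 3 was at chr19:58745033-59656849, with widths from 2069 to 2530 bp. The longest stretch without any was on the X, where 131 Mb from 11649861 to 142569645 held 2147 listed regions, 168 of them in the comparison set.

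The next region of 1000 bp or more was a median of 30.9 kb away from a very wide region (interval 24.9 to 37.8 kb). It was 37.5 kb away from a comparison region and 41.2 kb from a narrow one, so the interval held the comparison value and not that of the narrow regions.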

How the data were processed

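ATAC-seq was run on 6 kidney libraries, 3 per group by the treatment label. Nuclei came from 100 mg of frozen tissue powder and 50000 were tagmented before paired reads of 150 bases, per the labels' protocols. FastQC, Trim Galore, cutadapt and rn6 are named in the submitters' processing notes. Not given in the sources used here are the aligner, peak caller, thresholds, transposase shift and merging rule. What the authors deposited is a single file of merged regions whose only values are positions in base pairs. Starts were read as 0-based.

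Gaps, neighbour counts by midpoint, flank coverage and joined stretches were calculated with numpy 2.4.6, pandas 2.3.3 and scipy 1.17.1 under Python 3.11.15, drawn with matplotlib 3.10.9 and checked on simulated lists. Named regions are the 10 widest, those at the threshold (3 a side, ties included), the 5 most isolated, the 5 with most and fewest neighbours, pairs within 100 kb and the widest of each chromosome. Further regions on chromosome 1, groups, joined stretches and the shortest gap were named after their values were seen. The width rule, comparison set and measures were chosen with earlier results of these data known. The butanediol comparison, gene placement, gene lists and sequence composition were planned for files that allowed them and were not run. Alternatives are given in the closing section.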

Additional observations from a re-analysis of the deposited data

How the results depend on the processing

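Over 25 alternatives, 20 values stayed inside the 95% interval of the value as reported, or within 1.5 times a count, and 5 did not. Nearest distance, very wide over comparison median, was 1.06 and ranged from 1.00 to 1.07 with neighbours of at least 300 bp, without neighbours at the minimum width of 200 bp, after joining, at thresholds of 1800 and 2200 bp and without chromosome 1. The last was added after seeing the data. The value after joining, 1.00, came from the 1597 joined stretches of 2000 bp or more, and 1364 of these held no very wide region. Joining also removes every gap under 500 bp. The matching ratio of shares with a neighbour within 1 kb was 0.848 and ranged from 0.791 to 0.956 over limits of 500 bp and 5 kb, both thresholds and the list without chromosome 1. The ratio of regions around was 1.02 within 500 kb on either side, 1.09 within 250 kb, which lay outside the interval of 0.969 to 1.07, 0.994 within 1 Mb, 1.04 with neighbours of at least 300 bp and 1.02 without chromosome 1. Relative to the whole list, chromosome 1 had 1.57 times as many very wide regions per listed region, and 2.18 times at 2200 bp (22 regions). Chromosome 3 had 0.441 times, and 0.163 times at 2200 bp, where 1 region was left, but 0.741 times at 1800 bp (29 regions), where its own interval held the whole-list rate. The 4 pairs within 100 kb became 2 within 50 kb and 33 within 1 Mb, by construction. The causes of the other shifts were not tested. Joining raised the number of stretches of 2000 bp or more from 233 to 1597. Alternatives for gene placement and sequence composition were not run. No paired analysis was possible because values per library are not part of the data used. Unknown depth limits what the list shows, since an unlisted stretch may be closed or below the caller's threshold.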

Other observations

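The first 10% of each chromosome's span, taken from its first to its last listed region, held 30 of 233, or 12.9% (95% Wilson interval 9.17% to 17.8%), against 9.22% of the comparison set. The interval just includes the comparison value at its lower end, so the difference was barely within counting error. The last 10% held 35 of 233, 15.0% (11.0% to 20.2%), against 13.2% of the comparison set. These bounds were chosen after the positions were seen.

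The 5 very wide regions of the X were split between its ends. Near the start of the coordinates lay chrX:4944711-4946714, chrX:10412905-10415124 and chrX:11647766-11649860, and toward the end lay chrX:142569646-142571707 and chrX:156811141-156813149. Their nearest regions were 6336, 5084, 309, 86 and 1313 bp away, and the numbers of other regions within 500 kb on either side were 16, 40, 95, 15 and 72. The 215 comparison regions of the X had a median nearest distance of 7476 bp and a median of 36 regions around them.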
